A study of Mus musculus with 21 samples.

Results

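The transcripts of 9 growth-arrest and stress genes were followed through exhaustive exercise and recovery in mouse quadriceps muscle: Cdkn1a, Gadd45a, Gadd45b, Gadd45g, Btg1, Btg2, Mdm2, Sesn1 and Plk2. They were taken by gene symbol from the transcript table and make up 9 of its 53738 symbols. The choice of genes was made with earlier results of these data known. Levels are in TPM, transcript abundance scaled for transcript length and for the size of the library. All 9 reached the mean of 1 TPM that was required for testing, as did 11830 symbols in all. The muscle came from adult male wild-type C57/Bl6 mice in 7 groups of 3 libraries. Sedentary mice had neither training nor exercise. Untrained mice ran a single exhaustive treadmill bout and were killed 0 h, 6 h or 72 h later. Trained mice had run voluntarily in a wheel for 12 weeks before a bout of the same protocol, with the same recovery times. The treadmill speed rose in steps until exhaustion. The paper reports better performance of trained mice in such tests, so the work done in the bout cannot be separated from training here. The design set every exercised group against the sedentary one. There was no trained group without the bout, so what training alone did to a gene could not be measured. The tissue was whole muscle, and in bulk samples fewer cells of a type and less RNA per cell cannot be told apart.

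Replicate 1 of untrained muscle at 0 h and replicate 1 of trained muscle at 0 h held identical values for every symbol (25037 of them above 0), so the table held 20 distinct libraries rather than 21. This shared library was left out of both 0 h groups wherever trained and untrained muscle were kept apart, which left 2 libraries in each. It was counted once where the 5 distinct 0 h libraries were compared to sedentary as 1 group. Fast muscle fibre markers were high in every group (8 genes, mean sums of 92648 to 113890 TPM), as the tissue label says. The 7 markers of dividing cells summed to less than 1 TPM in every library (0.586 to 0.978), and none reached the level needed for testing.

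The genes are classed together because they belong to, or control, the programmes that halt growth after stress. p53 is a transcription factor that is held low by the ubiquitin ligase Mdm2, itself a p53 target, and it switches on Cdkn1a, which encodes the p21 inhibitor of cyclin-dependent kinases. The GADD45 proteins are small stress sensors that bind PCNA, p21 and the MAP kinase kinase kinase Map3k4. Btg1 and Btg2 belong to the BTG/TOB family, which recruits the CCR4-NOT deadenylase to messenger RNA and so speeds its decay. Sesn1 is a sestrin, which restrains mTORC1 under stress and when leucine is short, and Plk2 is a stress-responsive polo-like kinase. Mature muscle fibres have left the cell cycle for good, so in this tissue these genes are studied in connection with metabolism, atrophy and acute stress more than with cell division.

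On GRCm39 the genes were spread over 5 chromosomes, 4 of them on chromosome 10 and 2 on chromosome 13. Btg2 lies on chromosome 1 (134002908 to 134015033, minus strand, 2 exons in its canonical transcript), Gadd45g on chromosome 13 (52000714 to 52002508, plus strand, 4 exons), Cdkn1a on chromosome 17 (29309936 to 29319701, plus strand, 3 exons) and Gadd45a on chromosome 6 (67012070 to 67014441, minus strand, 4 exons).

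The promoters of the 4 genes that rose most after exercise are shown because 3 of them moved together at 0 h while Gadd45a followed at 6 h. Each is the stretch of 250 bases before a RefSeq start, 5′ to 3′ on the gene's strand, located here in GRCm39 by exact match. Capitals mark letters that matched 1 of 8 searched motifs on either strand: the cAMP response element TGACGTCA and its core TGACG, the AP-1 site TGANTCA, the CArG box, the NF-kB site, the p53 decamer, the E-box CACGTG and the TATA box TATAAA. The cAMP response element contains its own core on both strands. The p53 decamer alone is not a complete p53 response element.
Btg2: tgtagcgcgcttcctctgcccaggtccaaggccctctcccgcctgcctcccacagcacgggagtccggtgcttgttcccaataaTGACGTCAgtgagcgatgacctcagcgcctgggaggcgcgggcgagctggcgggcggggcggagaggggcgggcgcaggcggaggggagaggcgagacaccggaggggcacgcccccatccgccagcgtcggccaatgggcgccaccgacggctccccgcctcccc
Gadd45g: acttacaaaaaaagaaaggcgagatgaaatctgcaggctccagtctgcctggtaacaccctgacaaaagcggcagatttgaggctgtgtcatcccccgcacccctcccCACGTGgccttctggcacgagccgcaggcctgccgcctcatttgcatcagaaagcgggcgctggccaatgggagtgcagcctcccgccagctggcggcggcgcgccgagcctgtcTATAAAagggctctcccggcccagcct
Cdkn1a: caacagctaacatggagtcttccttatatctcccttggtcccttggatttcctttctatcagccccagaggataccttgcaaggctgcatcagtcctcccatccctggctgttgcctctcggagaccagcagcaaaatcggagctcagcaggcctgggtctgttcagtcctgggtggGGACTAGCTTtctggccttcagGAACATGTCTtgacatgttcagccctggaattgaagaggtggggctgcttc
Gadd45a: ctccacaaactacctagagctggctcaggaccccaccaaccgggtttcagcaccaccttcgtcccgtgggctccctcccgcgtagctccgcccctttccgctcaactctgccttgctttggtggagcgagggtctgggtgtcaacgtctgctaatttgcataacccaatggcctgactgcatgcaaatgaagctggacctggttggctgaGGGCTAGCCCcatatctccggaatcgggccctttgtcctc

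The stretches span chr1:134006894-134007143 (Btg2), chr13:52000461-52000710 (Gadd45g), chr17:29309703-29309952 (Cdkn1a) and chr6:67014392-67014641 (Gadd45a). The Btg2 stretch lies inside the gene as GENCODE annotates it, since some annotated transcripts start 8140 bases further upstream. Btg2 held 1 complete cAMP response element, 166 to 159 bases before its start, a motif found in 1.55% of the 32851 promoters of this length. Gadd45g held a TATA box 27 bases before its start (12.4% of promoters) and an E-box 142 bases before it (6.02%). Cdkn1a held 2 p53 decamers, 73 and 51 bases before its upstream start (7.13% of promoters held at least 1), and Gadd45a held 1, 40 bases before its start. None of these 4 stretches held an AP-1 site (6.75%), a CArG box (1.47%) or an NF-kB site (5.93%) in these letters. All 9 genes matched the promoter table, with 11 starts between them. Plk2 also held a complete cAMP response element, 62 bases before its start, and its transcript did not pass the test in any comparison. A p53 decamer also lay 186 bases before the Mdm2 start and 173 bases before the downstream Sesn1 start. Neither transcript was called compared to sedentary at any time in the main fit. Gadd45b held the same motifs as Gadd45g, a TATA box 46 bases and an E-box 185 bases before its start. Btg1 held a TATA box 26 bases before its start. The stretch before the downstream Cdkn1a start held none of the searched motifs. Whether any of these motifs bears on the level or timing of a transcript was not tested.

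Because TPM is scaled per length, levels of different genes can be set side by side. Differences are on the log2(TPM + 0.5) scale from limma and are given with the standard error (SE), so folds of low genes are understated. A gene was called when its adjusted p was below 0.05 and its difference at least 1.5-fold. Of the 9 genes, 3 were called at 0 h compared to sedentary with both training states together (Cdkn1a, Gadd45g and Btg2, all higher), against 3.85% of all genes tested. The same 3 were called in untrained muscle (background 2.92%) and in trained muscle (3.24%) at 0 h, comparisons that share the sedentary libraries. At 6 h, 3 were called in untrained muscle (Cdkn1a, Gadd45a and Btg2, all higher, background 4.23%) and 3 in trained muscle (Cdkn1a and Gadd45a higher, Btg1 lower, background 3.84%). At 72 h, 0 of the 9 were called in untrained muscle, where 0.00845% of all genes were called, and 0 in trained muscle, where 0.245% were; limma gave an unadjusted p below 0.05 for 2 of the 9 in each. The median difference over the 9 genes was 0.10 at 0 h, beside 0.11 over all genes tested.

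**Figure D1:**
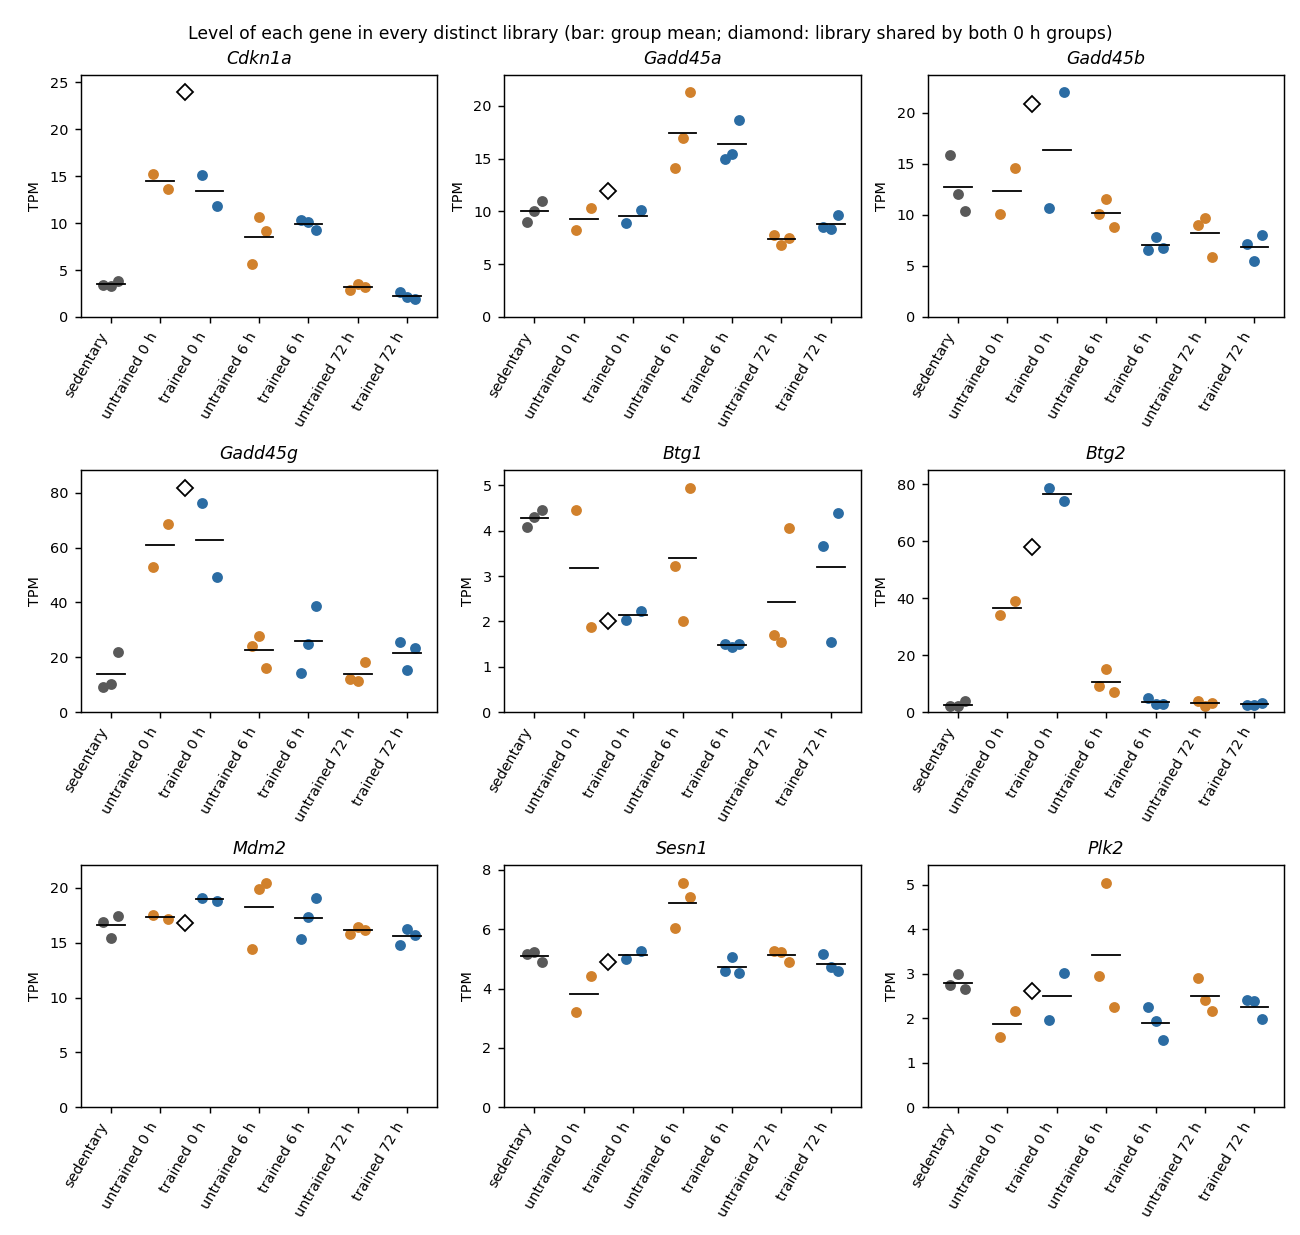
Level (TPM, linear axis from 0) of the 9 genes in every distinct library, by group, with untrained muscle in orange, trained in blue, sedentary in grey, a bar at each group mean and an open diamond for the library that both 0 h groups share. Btg2, Gadd45g and Cdkn1a peak at 0 h, Gadd45a peaks at 6 h, and Mdm2 stays between 14.4 and 20.5 TPM.

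Btg2 showed the widest range of the 9 genes. Sedentary muscle held 2.10, 2.12 and 3.76 TPM of Btg2. At 0 h it stood at 34.2 and 39.0 TPM in untrained muscle, at 78.8 and 74.3 TPM in trained muscle and at 57.9 TPM in the shared library. Every 0 h library was thus above every sedentary library, with the trained pair above the untrained pair and the shared library between them. The difference from sedentary was 4.14 (SE 0.30, adjusted p = 1.64e-07), a 17.7-fold rise. Taken apart, it was 3.59 in untrained (adjusted p = 1.02e-05) and 4.65 in trained muscle (adjusted p = 7.99e-07). The highest group mean, 76.6 TPM in trained libraries at 0 h, was 28.8 times the lowest, that of sedentary muscle.

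At 6 h the training states parted. Untrained muscle still held 9.34, 15.1 and 7.22 TPM of Btg2, all above sedentary (difference 1.79, SE 0.27, adjusted p = 0.000856). Trained muscle held 4.96, 2.89 and 2.95 TPM, overlapping the sedentary range, with a difference from sedentary of 0.38 (95% interval -0.20 to 0.96, adjusted p = 0.419). No trained library at 6 h reached the lowest untrained library. Trained muscle was 2.65-fold lower than untrained (difference -1.41, SE 0.27, adjusted p = 0.00881), the only call among the 9 genes in that comparison, in which 1.94% of all genes were called. By 72 h Btg2 was at 2.28 to 3.99 TPM in untrained and 2.58 to 3.27 TPM in trained muscle, within or close to the sedentary range (differences of 0.22 and 0.11, neither called).

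From 0 h to 6 h Btg2 fell 3.50-fold in untrained muscle (difference -1.81, adjusted p = 0.00214). In trained muscle it fell 19.3-fold (difference -4.27, adjusted p = 1.71e-06). The trained minus untrained difference in this change was -2.46 (SE 0.43, adjusted p = 0.0354), 1 of 2 calls among the 9 genes beside 0.321% of all genes. This last call was fragile: it was kept when untrained 6 h replicate 1 or 3 or trained 6 h replicate 1 was left out and lost with any other single library of the 4 groups left out (adjusted p of up to 0.154). Across the alternatives with every library kept, its adjusted p ranged from 0.0216 to 0.211. The fall in each training state on its own was kept whichever library was left out. With only the 2 groups compared in the fit, the 6 h difference between trained and untrained muscle was of the same size and not called (adjusted p = 0.217, range over all alternatives 0.00584 to 0.217); it was kept with each single library left out.

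Some macrophage markers differed between the same groups as Btg2 at 6 h. Of 10 markers, 8 were tested and 2 were called between trained and untrained muscle, against 1.94% of all genes. Cd68 and Csf1r, both defining macrophage genes, were higher at 6 h without training than in sedentary muscle (1.62 and 0.61), and at that time the trained libraries had less of both than the untrained ones (-1.47 and -0.78). The Csf1r rise lies close to the 1.5-fold limit (0.585 on the log2 scale), and no marker call was recomputed under the alternatives. The 10 markers summed to between 45 and 49.6 TPM in the sedentary libraries. At 6 h the sum ran from 40.0 to 84.2 TPM without training and from 37.4 to 55 TPM with it. No marker of neutrophils (6 genes) passed the level filter, and their sum was at most 2.11 TPM. At 72 h Cd68 was still higher in untrained muscle (4.71 TPM ± 1.06, SD, n = 3, compared to 1.29 TPM ± 0.29, SD, n = 3, in the sedentary group; difference 1.53, adjusted p = 0.0388), while Btg2 was at 3.16 TPM ± 0.86 (SD, n = 3). The part of macrophage RNA in the Btg2 difference at 6 h was not tested.

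Of the 11830 genes tested, 0 (0%) were called between trained and untrained muscle at 0 h (limma gave an unadjusted p below 0.05 for 528). With no filter on expression 13 of 36627 genes were called, and with only these groups in the fit 37 of 11830, none of the 9 genes among them. Among the 9 genes, Btg2 and Sesn1 had an unadjusted p below 0.05. Btg2 was higher in trained muscle by 1.06 (95% interval 0.35 to 1.77, adjusted p = 0.986) with no overlap between 2 and 2 libraries.

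**Figure D2:**
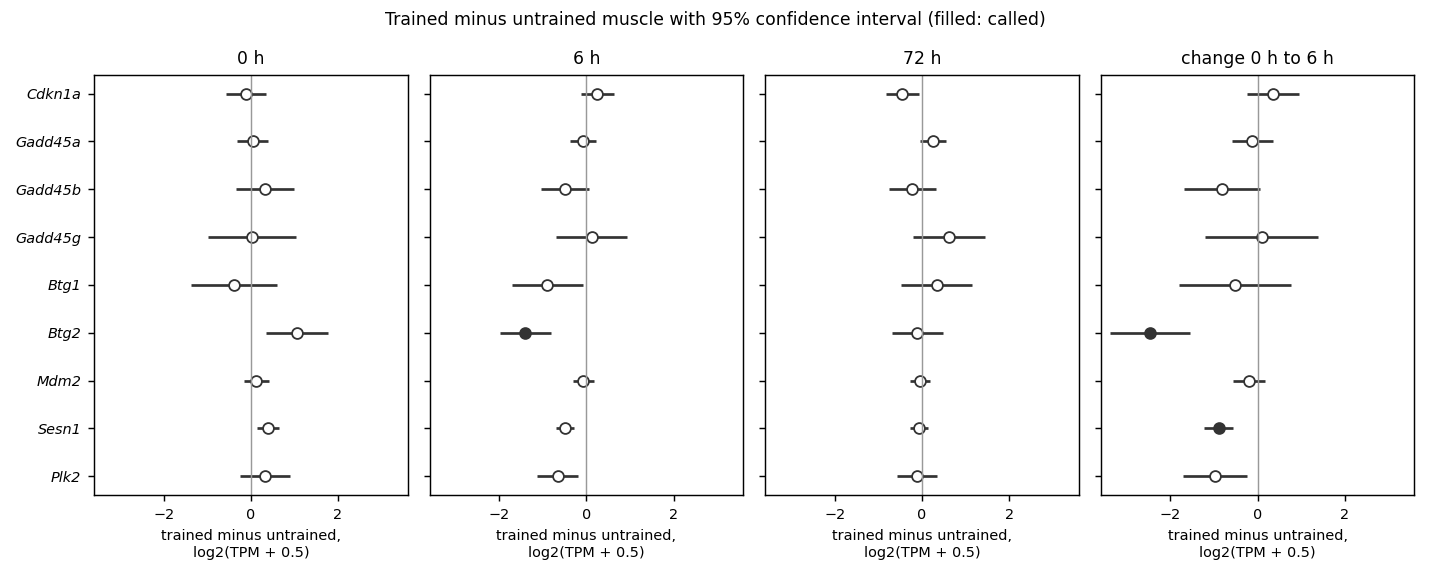
Trained minus untrained muscle at each recovery time, and in the change from 0 h to 6 h, on the log2(TPM + 0.5) scale (horizontal axis) for the 9 genes, with 95% confidence intervals and filled points for calls. Btg2 is called at 6 h (-1.41) and in the change (-2.46), and Sesn1 in the change (-0.89).

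Btg1, the close relative of Btg2, did not share its pattern. Sedentary muscle held 4.07, 4.31 and 4.46 TPM of Btg1. The 20 distinct libraries were divided at the widest gap between neighbouring levels of Btg1. This gave 2 ranges, 1.44 to 2.23 TPM in 11 libraries and 3.22 to 4.95 TPM in 9. No other gene was divided this way. Both ranges occurred within untrained muscle at 0 h (4.46 and 1.88 TPM), at 6 h (3.22, 2.00 and 4.95 TPM) and at 72 h (1.69, 1.54 and 4.06 TPM), and within trained muscle at 72 h (3.65, 1.55 and 4.39 TPM). Trained muscle at 6 h was wholly in the low range (1.5, 1.44 and 1.51 TPM), and its difference from sedentary was called (-1.27, SE 0.38, adjusted p = 0.0471). That call was lost with any single library of either group left out (adjusted p of 0.0994 to 0.11). The GENCODE annotation lists 2 processed pseudogenes of it on chromosome X, Btg1b and Btg1c, with which reads could have been shared, so its level is uncertain. Whether the split into 2 ranges comes from that was not tested. At 0 h Btg1 was not called (-0.72, adjusted p = 0.164). Btg2 made up 95% ± 3.7 (SD, n = 5) of the summed Btg1 and Btg2 TPM at 0 h, compared to 37.6% ± 7.1 (SD, n = 3) in sedentary muscle.

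Of 19 other genes of the BTG/TOB family and the CCR4-NOT and poly(A)-shortening machinery, 18 were tested. At 0 h 3 were higher and 0 lower: Tob2 (2.47, adjusted p = 5.95e-08), Pan3 (0.75, adjusted p = 0.00501) and Tob1 (0.63, adjusted p = 0.000127). Tob1 and Tob2 are the TOB adaptors of the same deadenylase, and Pan3 is a subunit of the other deadenylase of poly(A) tails. Tob2 rose from 6.58 TPM ± 1.48 (SD, n = 3) in sedentary to 38.5 TPM ± 5.94 (SD, n = 5) at 0 h. It was still higher at 6 h, by 1.07 in untrained (adjusted p = 0.0025) and 0.77 in trained muscle (adjusted p = 0.0183). Pabpc1, the poly(A)-binding protein, was the other call at 6 h, in untrained muscle (0.59). The Tob1 and Pabpc1 calls lie close to the 1.5-fold limit (0.585 on the log2 scale) and were not recomputed under the alternatives. Over all genes tested, 3.85% were called at 0 h (392 higher and 64 lower), 4.23% in untrained and 3.84% in trained muscle at 6 h. The list's median was 0.16 at 0 h beside 0.11 over all genes tested, and none of the CNOT subunits was called in any comparison.

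Among the 3 GADD45 genes the rise at 0 h was in Gadd45g. Sedentary muscle held 9.12, 10.4 and 22.1 TPM of Gadd45g. The 0 h libraries held 53.1 and 68.5 TPM in untrained muscle, 76.3 and 49.2 TPM in trained muscle and 81.8 TPM in the shared library, all more than any sedentary library. The difference was 2.29 (SE 0.33, adjusted p = 0.000195), 4.87-fold. It was similar in untrained (2.19, adjusted p = 0.00758) and trained muscle (2.21, adjusted p = 0.00661), and the difference between them at 0 h was 0.02 (95% interval -0.98 to 1.03). These separate calls rested on few libraries: without untrained 0 h replicate 3 the adjusted p was 0.0932, and without trained 0 h replicate 2 it was 0.105. With only the groups compared in the fit both were lost (adjusted p = 0.128 in untrained, range over all alternatives 0.000685 to 0.128, and 0.15 in trained muscle, range 0.000611 to 0.15), while the call over all 5 libraries was kept with each library left out.

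By 6 h Gadd45g was at 24.1, 27.7 and 16.1 TPM in untrained and at 14.4, 24.9 and 38.5 TPM in trained muscle. Both groups overlapped the sedentary range through its highest library (differences 0.76 and 0.88, adjusted p = 0.266 and 0.167). Within trained muscle the fall from 0 h to 6 h was called (-1.33, SE 0.43, adjusted p = 0.0478), and within untrained muscle the fall of like size was not (-1.43, adjusted p = 0.0598). The trained call was lost with any single library left out other than trained 6 h replicate 3 (adjusted p of up to 0.263). At 72 h Gadd45g was at 11.3 to 18.3 TPM in untrained muscle and 15.5 to 25.5 TPM in trained muscle.

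Gadd45a took a later course. It did not rise at 0 h, with 9.0, 9.99 and 11 TPM in sedentary muscle and 8.22 to 11.9 TPM over the 5 libraries at 0 h (difference -0.02, 95% interval -0.29 to 0.25). At 6 h it was at 14.1, 17.0 and 21.3 TPM in untrained and 15, 15.4 and 18.7 TPM in trained muscle, and no 6 h library overlapped sedentary or 0 h muscle. The rise compared to sedentary was 0.76 in untrained (SE 0.14, adjusted p = 0.00294) and 0.68 in trained muscle (SE 0.14, adjusted p = 0.00645). Trained and untrained muscle differed by -0.08 at 6 h (95% interval -0.37 to 0.21). Without trained 6 h replicate 3 the difference from sedentary was 0.58, just under the fold required for a call. From 0 h to 6 h the rise was 0.87 in untrained (adjusted p = 0.00318) and 0.75 in trained muscle (adjusted p = 0.0057). Without untrained 0 h replicate 2 the former had an adjusted p of 0.0622, and without trained 0 h replicate 2 the latter had one of 0.0617.

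Gadd45b did not differ from sedentary muscle by call at any time. Sedentary muscle held 15.9, 12.0 and 10.4 TPM of Gadd45b. The 0 h libraries ran from 10.1 to 22.0 TPM and spanned the sedentary range. Trained muscle at 6 h was lower than every sedentary library (6.54, 7.88 and 6.77 TPM; difference -0.79, adjusted p = 0.0638). At 72 h both training states were below every sedentary library, untrained muscle at 8.98, 9.65 and 5.91 TPM (difference -0.62, adjusted p = 0.802) and trained muscle at 7.19, 5.46 and 8.03 TPM (difference -0.84, adjusted p = 0.173). Within trained muscle the fall from 0 h to 6 h was called (-1.07, SE 0.29, adjusted p = 0.0225). This rested on 1 high library, trained 0 h replicate 3 at 22.0 TPM, without which the difference was -0.57 (adjusted p = 0.262); it was also lost without trained 6 h replicate 1 (adjusted p = 0.0612) or 3 (adjusted p = 0.0516).

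**Figure D3:**
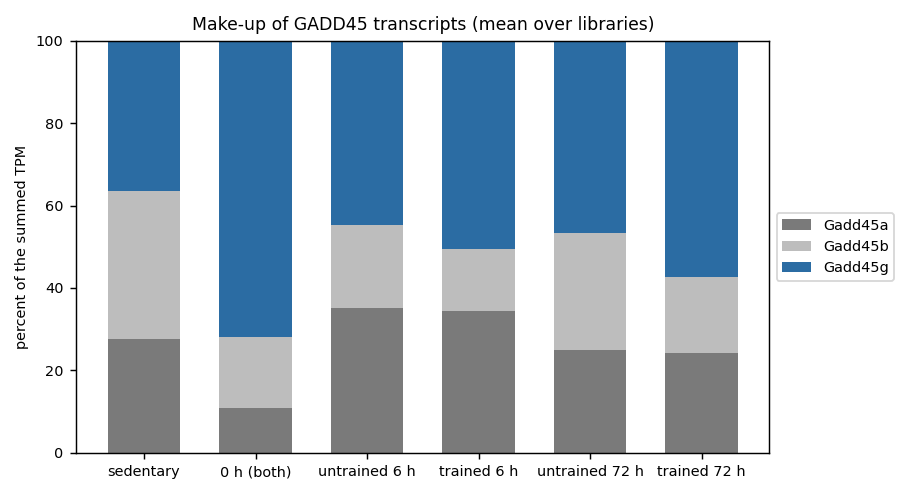
Share of Gadd45a, Gadd45b and Gadd45g in their summed TPM (percent, mean over the libraries of each group, with the 5 distinct 0 h libraries as 1 group). Gadd45g takes 71.8% at 0 h compared to 36.6% in sedentary muscle, and Gadd45a takes 27.5% in sedentary muscle and 35.2% and 34.3% at 6 h.

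The make-up of GADD45 transcripts therefore changed with time. The sum of the 3 genes was 36.6 TPM ± 5.98 (SD, n = 3) in sedentary muscle and 91.3 TPM ± 16.3 (SD, n = 5) at 0 h. Gadd45g made up 71.8% ± 7.0 (SD, n = 5) of it at 0 h and 36.6% ± 12.6 (SD, n = 3) in sedentary muscle. Gadd45a made up 27.5% ± 2.9 (SD, n = 3) in sedentary muscle and 11% at 0 h, where its own level did not differ by call. At 6 h its share was 35.2% ± 9.4 (SD, n = 3) in untrained and 34.3% ± 6.6 (SD, n = 3) in trained muscle, ranges that overlap the sedentary one. Of 13 MAP kinases and partners linked to GADD45, 10 were tested and 0 were called in any of the 13 comparisons with limma; at 0 h compared to sedentary 2 had an unadjusted p below 0.05.

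Cdkn1a rose at 0 h and stayed up at 6 h in both training states. Sedentary muscle held 3.36, 3.31 and 3.78 TPM. At 0 h it stood at 15.3 and 13.7 TPM in untrained muscle, at 15.1 and 11.8 TPM in trained muscle and at 23.9 TPM in the shared library. The lowest 0 h library was thus above 3 times the highest sedentary one. The difference was 2.01 (SE 0.19, adjusted p = 3.57e-06), 4.02-fold, with 1.91 in untrained (adjusted p = 4.58e-05) and 1.80 in trained muscle (adjusted p = 6.06e-05). The p21 transcript did not differ between the training states at 0 h by call (-0.11, 95% interval -0.57 to 0.35).

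At 6 h Cdkn1a was at 5.65, 10.7 and 9.19 TPM in untrained and 10.3, 10.1 and 9.26 TPM in trained muscle, all above sedentary. The rise was 1.14 in untrained (SE 0.18, adjusted p = 0.000983) and 1.39 in trained muscle (SE 0.18, adjusted p = 0.000344). Unlike Btg2, then, it had not returned to the sedentary range in trained muscle, and the trained minus untrained difference at 6 h was 0.25 (95% interval -0.12 to 0.63). The fall from 0 h to 6 h was called in untrained muscle (-0.77, SE 0.20, adjusted p = 0.0284) and not in trained (-0.41, 95% interval -0.83 to 0.01), and the test of the difference between these falls gave 0.36 (95% interval -0.23 to 0.96, adjusted p = 0.661). The untrained call was lost without untrained 0 h replicate 2 (adjusted p = 0.188) or 3 (adjusted p = 0.1), and without untrained 6 h replicate 1, where the difference was -0.52. By 72 h trained muscle held 2.68, 2.09 and 1.92 TPM, below every sedentary library (difference -0.55, adjusted p = 0.195), and untrained muscle 2.92 to 3.49 TPM.

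Mdm2 stayed level while Cdkn1a rose. It was at 15.5 to 17.4 TPM in sedentary muscle and at 14.4 to 20.5 TPM over all 20 libraries, and its highest group mean was 1.22 times its lowest. The difference from sedentary was 0.10 at 0 h (95% interval -0.10 to 0.31), 0.12 in untrained (95% interval -0.11 to 0.35) and 0.05 in trained muscle at 6 h (95% interval -0.18 to 0.29). These intervals leave out a change of 1.5-fold in either direction.

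Trp53, which encodes p53, ranged from 3.92 to 7.60 TPM over all libraries, with 4.89 TPM ± 0.47 (SD, n = 3) in sedentary muscle and 5.47 TPM ± 0.56 (SD, n = 5) at 0 h. Of 16 genes for p53, its relatives and its regulators, 12 were tested and 0 were called in any comparison with limma (at 0 h 3 had an unadjusted p below 0.05, all higher). Of 30 other p53 target genes, 20 were tested. At 0 h 3 of these were higher (Plk3, Sertad1 and Tnfrsf10b) and 0 lower, and the list's median was 0.07 beside 0.11 over all genes tested. Of all genes tested, 3.85% were called at 0 h, 392 higher and 64 lower. Plk3, a stress-responsive polo-like kinase, rose by 2.20 (adjusted p = 3.59e-06), Sertad1, a cyclin-dependent kinase 4 regulator, by 1.60 (adjusted p = 3.72e-05), and Tnfrsf10b, a death receptor, by 0.94 (adjusted p = 0.00117). All 3 fell again from 0 h to 6 h in both training states. Plk3 and Tnfrsf10b averaged 1.04 and 1.05 TPM over the distinct libraries and reached the level for testing only through the 0 h libraries. Outside 0 h their group means were 0.19 to 0.84 TPM and 0.72 to 0.80 TPM. The filter thus let them in because they were high at 0 h, and their calls and the count of 3 depend on it.

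At 6 h another target moved. Phlda3, an inhibitor of Akt signalling, stood at 91.1 TPM ± 5.0 (SD, n = 3) in the sedentary group. At 6 h it reached 138.5 TPM ± 25.2 (SD, n = 3) without training and 139.8 TPM ± 6.7 (SD, n = 3) with it, differences of 0.59 (adjusted p = 0.00874) and 0.61 (adjusted p = 0.007). Ckb, the brain creatine kinase, known as a p53-repressed gene, was lower in both (-0.68 and -0.79). No other tested target was called at 6 h compared to sedentary. Of all genes tested, 4.23% were called in untrained and 3.84% in trained muscle at 6 h. Eda2r, a receptor for ectodysplasin A2, was the only target called between trained and untrained muscle at 6 h (-0.60, adjusted p = 0.0332). The Phlda3 and Eda2r calls lie close to the 1.5-fold limit (0.585 on the log2 scale). Like the calls of all other list and marker genes, they were not recomputed under the alternatives.

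Of 21 other inhibitors, cyclins and cyclin-dependent kinases of the cell cycle, 15 were tested. Ccnd2 (0.79) and Ccnd3 (0.61), both D-type cyclins, were higher at 0 h and 0 genes were lower. At 6 h Ccne2 was lower in untrained muscle (-0.61) and 0 were called in trained muscle (with limma, 6 had an unadjusted p below 0.05, all lower). The Ccnd3 and Ccne2 calls lie close to the 1.5-fold limit and were not recomputed under the alternatives. Over all genes tested, 3.85% were called at 0 h, 4.23% in untrained and 3.84% in trained muscle at 6 h.

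Sesn1 was not called compared to sedentary at any time in the main fit, but its course from 0 h to 6 h differed between the training states. In untrained muscle at 0 h its difference from sedentary was -0.39 (adjusted p = 0.0629 with limma). With single libraries left out this difference ran from -0.59, past the required fold, to -0.18. It held 5.17, 5.23 and 4.88 TPM in sedentary muscle. Untrained muscle was at 3.21 and 4.43 TPM at 0 h and at 6.05, 7.55 and 7.06 TPM at 6 h, with the former below and the latter above every sedentary library. Trained muscle was at 5.0 and 5.28 TPM at 0 h and at 4.59, 5.06 and 4.53 TPM at 6 h, and the shared library was at 4.89 TPM. From 0 h to 6 h Sesn1 rose by 0.78 in untrained muscle (SE 0.11, adjusted p = 0.000545) and changed by -0.11 in trained muscle (95% interval -0.34 to 0.12). The difference between the changes was -0.89 (SE 0.15, adjusted p = 0.0348).

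This call too was fragile. It was lost with any of 7 single libraries left out, including untrained 0 h replicate 2, the library at 3.21 TPM, without which the difference was -0.69 (adjusted p = 0.125), and it was lost with the shared library kept as an untrained one (-0.78, adjusted p = 0.0506; range over all alternatives 0.0145 to 0.353). The rise within untrained muscle was also just under the required fold without untrained 0 h replicate 2 (0.58, adjusted p = 0.01). At 6 h the adjusted p was 0.0189 for the rise compared to sedentary in untrained muscle (0.40) and 0.00938 for trained minus untrained (-0.50), and both missed the required 1.5-fold. At 72 h Sesn1 was at 4.59 to 5.27 TPM in both training states. Of 24 genes for the other sestrins and the GATOR and RAG machinery through which they act on mTORC1, 20 were tested and 0 were called in any comparison with limma (at 0 h 7 had an unadjusted p below 0.05, all higher). Sesn3 stood at 1.59 TPM and Sesn2 at 0.63 TPM on average, so Sesn1 was the most abundant sestrin transcript.

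Plk2 was the least abundant of the 9 transcripts over all libraries, and it did not pass the test in any comparison. Sedentary muscle held 2.75, 3.00 and 2.66 TPM. Its lowest group mean was in untrained muscle at 0 h (1.57 and 2.16 TPM) and its highest in untrained muscle at 6 h (2.94, 5.05 and 2.27 TPM). Trained muscle at 6 h held 2.25, 1.93 and 1.5 TPM, below every untrained library at that time (difference -0.66, SE 0.22, adjusted p = 0.104). Without untrained 6 h replicate 3 this difference was -0.88 and was called (adjusted p = 0.0365), as was the rise from 0 h to 6 h in untrained muscle (0.90, adjusted p = 0.0362). Plk3 was the other polo-like kinase that could be tested, of 4, and it reached the level for testing only through the 0 h libraries.

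**Figure D4:**
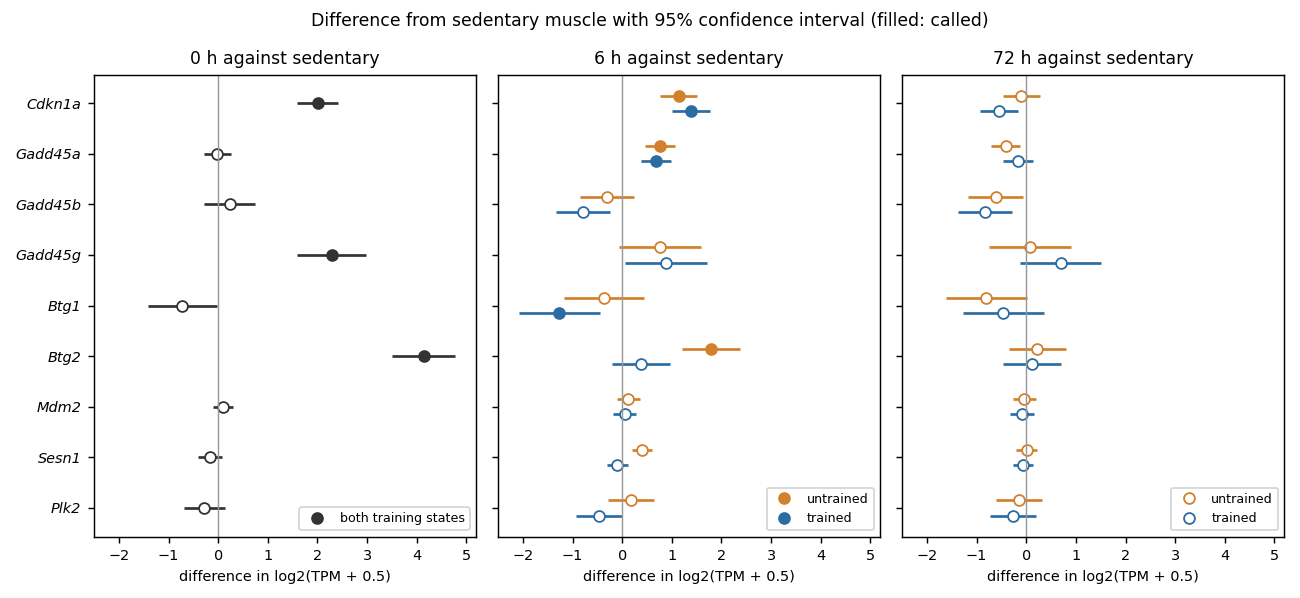
Difference from sedentary muscle on the log2(TPM + 0.5) scale (horizontal axis) at 0 h (both training states together), 6 h and 72 h for the 9 genes, with 95% confidence intervals and filled points for calls (untrained orange, trained blue). Btg2 has the largest difference at 0 h (4.14), Cdkn1a is called in both training states at 6 h (1.14 and 1.39), and none of the 9 is called at 72 h.

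At 72 h, compared to sedentary, the differences of the 9 genes ran from -0.81 (Btg1) to 0.22 (Btg2) in untrained and from -0.84 (Gadd45b) to 0.69 (Gadd45g) in trained muscle. Between trained and untrained muscle 0 of the 9 were called with limma, against 0.363% of all genes, and 1 had an unadjusted p below 0.05 (Cdkn1a, -0.45).

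From 0 h to 6 h, 4 of the 9 were called in untrained muscle (Gadd45a and Sesn1 higher, Cdkn1a and Btg2 lower), against 4.13% of all genes. In trained muscle 4 were called (Gadd45a higher, Gadd45b, Gadd45g and Btg2 lower), against 5.77%. Over all genes tested the median change in trained muscle was -0.14 in deposited TPM and 0.003 after median-of-ratios scaling, and with that scaling the falls of Gadd45b (-0.91, adjusted p = 0.0575) and Gadd45g (-1.17, adjusted p = 0.0919) were not called. Over that result's alternatives the adjusted p ranged from 0.00403 to 0.133 for Gadd45b and from 0.0102 to 0.166 for Gadd45g. The same scaling moved the median at 0 h compared to sedentary from 0.11 to 0.007 and left the 3 calls there in place. Tob1 (0.63) and Ccnd3 (0.61) at 0 h were not recomputed with it. A shift of that size would take both below the 1.5-fold limit. Genes of the mitochondrial genome took 37.7% to 40.6% of the TPM in the distinct 0 h libraries and 40.6% to 48.0% in the others. With TPM rescaled without these genes and the 10 highest genes, the falls of Gadd45b (-0.93, adjusted p = 0.0574) and Gadd45g (-1.17, adjusted p = 0.0962) were of about the size found with median-of-ratios scaling and were not called.

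The genes whose group means ran closest to each gene's over the 7 groups (log2 scale, 6107 genes of at least 5 TPM) are given as a description. For Btg2 these were Stx5a (Pearson r 0.992, Spearman rho 0.857) and Gm29233 (0.990 and 0.929). For Gadd45g they were Tob2 (0.990 and 0.964) and the mitochondrial ribosomal RNA gene mt-Rnr2 (0.988 and 0.964), for Cdkn1a they were Jmjd6 (0.991 and 0.929) and Pak1ip1 (0.990 and 1), for Gadd45a Acsl1 (0.979 and 0.857) and Rmc1 (0.974 and 0.643), and for Btg1 Gm12895 (0.968 and 0.964) and Gm55936 (0.937 and 0.964). The points are 7 means that share the same libraries, and with so many candidates high values arise readily.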

How the data were processed

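Quadriceps RNA of 21 samples was sequenced after TruSeq v2 library preparation. The authors mapped reads to GRCm39 with STAR 2.7.9 and quantified them with Salmon 1.5.0 (the submitters' processing notes also list DESeq2 3.16, whose output was not used), and deposited 1 table of TPM per gene symbol. TPM keeps no read depth, so depth and counting error are unknown here, and the number of libraries limits the precision.

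Values were tested as log2(TPM + 0.5) with limma 3.58.1 (R 4.3.3; empirical Bayes with a variance trend; Benjamini-Hochberg over the 11830 symbols that averaged 1 TPM or more across distinct libraries). All 7 groups entered 1 model with the shared 0 h library left out (19 libraries, 12 residual degrees of freedom). A second model with all 0 h libraries as 1 group (20 libraries, 14 residual degrees of freedom) gave the pooled 0 h comparison. Nothing states that same-group samples came from separate animals, so p-values measure the spread between these samples, and numbers shared between groups did not pair them. Gene positions came from GENCODE on GRCm39, promoter sequences from RefSeq (GRCm38.p6 table, matched exactly to GRCm39). The genes and lists were chosen with earlier results of these data known. Within a list, the genes named are at most 4 per comparison, those with the largest differences among calls. Trp53, Sesn2 and Sesn3 were named outside that rule, after their values were seen. Alternatives tried were other pseudocounts, filters, scalings, variance estimates, weights, placements of the shared library, a replicate block, only the compared groups, and each library left out.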

Additional observations from a re-analysis of the deposited data

Results flagged for a closer look

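Among the 5 distinct 0 h libraries, 2 of the 9 genes had 1 library far from the others. For Cdkn1a the shared library (23.9 TPM) was separated from the next (15.3 TPM) by a share of 0.715 of the range. For Btg1 untrained 0 h replicate 2 (4.46 TPM) was separated from the next (2.23 TPM) by a share of 0.865. A gap large enough to be listed here arises by chance in about 1 of 20 groups, and 9 groups were examined. Without the shared library the Cdkn1a rise at 0 h was 1.91 in untrained and 1.80 in trained muscle, both called. The Btg1 value lies in the higher of the gene's 2 ranges, where the sedentary libraries also lie.

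Trained and untrained muscle differed by call in 3 results. At 6 h trained muscle had less Btg2 than untrained (-1.41). The change from 0 h to 6 h was lower in trained muscle for Btg2 (-2.46) and for Sesn1 (-0.89), the latter with a rise in untrained muscle and no call in trained muscle. All 3 calls were lost with only the compared groups in the limma fit (adjusted p = 0.217, 0.211 and 0.353, in the order given). The 2 calls in the change were also fragile to single libraries, as given above.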

How the results depend on the processing

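No result changed direction under any alternative. With all libraries kept, 194 recomputed numbers of called genes stayed within 1.5 times and 12 did not. With only the compared groups in the fit, 0 genes were called in untrained muscle at 6 h compared to sedentary, 0 in trained compared to untrained muscle at 6 h, 0 in untrained muscle from 0 h to 6 h, 1 in trained muscle from 0 h to 6 h and 0 in the difference between those changes; this fit has 2 or 3 libraries a side and few residual degrees of freedom. From 0 h to 6 h in trained muscle, 2 genes were called under median-of-ratios scaling, 2 under quantile normalization and 2 with TPM rescaled without mitochondrial-genome and the 10 highest genes. In the difference between the changes 1 gene was called after that rescaling, 1 with the shared library kept as untrained only, and 0 with the replicate block. With no threshold on the fold, 2 genes were called between trained and untrained muscle at 6 h. The cause was not tested.

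When libraries were left out singly, the genes called numbered 1 to 5 in untrained and 2 to 3 in trained muscle from 0 h to 6 h, 0 to 2 in the difference between those changes, 1 to 2 between trained and untrained muscle at 6 h, 1 to 2 in trained muscle at 6 h and 2 to 3 in trained muscle at 0 h, and did not move in the other comparisons.

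Replicate numbers did not pair the samples: of 52 same-numbered pairs 0 had a correlation of deviations over 0.1 (median 0.011), and 5 of 19 libraries correlated best with their own number. Under the replicate block the calls of Btg1 in trained muscle at 6 h (adjusted p = 0.051), Cdkn1a from 0 h to 6 h in untrained muscle (0.052) and Gadd45g from 0 h to 6 h in trained muscle (0.0802) were also lost.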
